A study of Papio anubis with 588 samples.

Results

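The question here was how far an animal's muscle expression level of a gene carried over from one biopsy to another taken 2 years later. The animals were olive baboons (Papio anubis) kept in captivity. Each gave biopsies of muscle, liver and adipose tissue at 0 years on a low cholesterol, low fat diet (LCLF) and again at 2 years, after feeding on a high cholesterol, high fat diet (HCHF). Of 570 quality-controlled libraries, 190 were muscle libraries of the 95 animals with both times, and 9038 of 34178 genes had a mean of at least 5 CPM (counts scaled to a common library size) in them. Every animal changed diet between its biopsies, so diet, age and calendar time cannot be told apart, and the sources used here give neither age nor sex. For each gene the log2 CPM was centred within time and library batch, and repeatability is the Spearman correlation (rho) of 0-year with 2-year values over the 95 animals.

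Skeletal muscle is built of slow, oxidative and fast, glycolytic fibres, with capillaries, connective tissue, nerve and resident immune cells between them. Some transcripts are set largely by an animal's genes and sex and stay with it for life. Others follow the clock, feeding, exertion or handling and change within hours, as immediate early genes do, or depend on how much connective tissue or blood a biopsy takes. In bulk muscle, fewer cells of a type and less RNA per cell cannot be told apart.

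The 190 libraries held 7.19 to 36.8 M counts (M for mega; median 19.1 M), with medians of 10.8 M in the 16 animals of batch 1 and 19.7 M in the 79 of batch 2. The labelled tissue matched its markers, since ACTA1, CKM, MB, DES and TTN together took 52660 to 232400 CPM. Several libraries stood apart. In 38 libraries of 27 animals the correlation with the other libraries was low. They were shallower (median 13.4 against 20.1 M counts) and held more hepatocyte transcript, with a median summed level of 12 markers of 131 against 5.76 CPM in the others. Of the 38, 15 were among the 32 libraries of the shallower batch 1. Their correlation was taken before centring by batch, so batch and library quality are mixed in it. Leaving out the 27 animals therefore also took out a larger share of batch 1 than of batch 2. ALB, the albumin gene of the liver, exceeded 100 CPM in 19 libraries, at both times in 6 animals and at 1 time in 7. It reached 2184 CPM at 0 years and 14170 CPM at 2 years, and the 12 markers together reached 3731 and 26660 CPM. With the summed level of the 12 markers as a covariate the median rho given below was 0.424 and 8527 genes passed, and of the 132 named genes CIART and MSTN lost their call and PSMA3 gained one. In batch 1, RPS2 was at most 2.44 CPM in 20 libraries and at least 107.5 CPM in 12. These 2 kinds of library did not overlap for 69 genes, 35 of them ribosomal by symbol, and 8 animals had 1 of each. Per the labels, the libraries of an animal shared their RNA extraction, library preparation and sequencing batches, so a lasting difference between animals and a shared processing batch cannot be told apart.

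Muscle expression carried over between biopsies for most genes, but to very different degrees. Y-linked genes divided the animals into the same groups at both times. Genes such as CHCHD2, CPAMD8, ARV1 and GSTM4 kept most of the order of the animals, while genes such as FOS, EGR1, ARNTL and FMOD kept little of it. The median rho over the 9038 genes was 0.471, with quartiles of 0.374 and 0.56 and a 5th to 95th percentile range of 0.221 to 0.672. Of these genes 8653 (95.7%) had a positive rho at an adjusted p under 0.05 (rank correlation, Benjamini-Hochberg over 9038 genes). No gene had a negative rho past that threshold, and 0 did at an unadjusted p under 0.05. The value exceeded 0.8 for 73 genes and was below 0.1 for 68, of which 14 were below 0. A single rho over 95 animals had a 95% interval of about 0.163 to either side (median over genes).

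A component shared by many genes carried over as well. The first principal component of the centred values took 32.2% of their variance, and its own rho between the times was 0.709. It was tied to the libraries that stood apart, with a Spearman correlation over libraries of 0.736 with the median correlation of a library with the others. With this component removed the median rho was 0.388 and 8061 genes passed. Without the 27 animals the median was 0.421 and 7717 genes (85.4%) passed, and in batch 2 alone the median was 0.484 and 8577 (94.9%) passed. At the CPM filter, AEN lay just inside with 5.002 CPM and a rho of 0.290, and LRRC8C just outside with 4.999 CPM and a rho of 0.402.

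**Figure D1:**
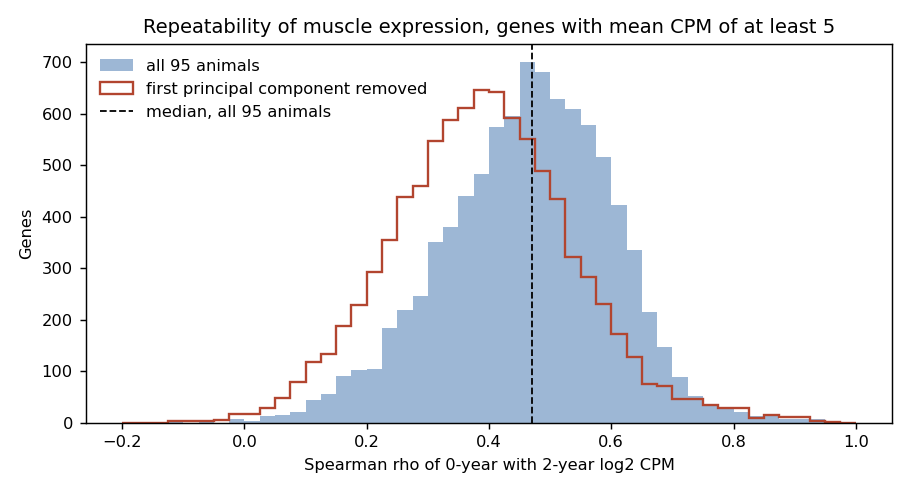
Histogram of the Spearman rho of 0-year with 2-year log2 CPM (x axis) over the 9038 muscle genes (y axis, number of genes), for all 95 animals (filled) and with the first principal component removed within each time (outline). The dashed line marks the median of 0.471 for all animals; with the component removed the distribution lies lower, with a median of 0.388.

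Among genes with a symbol, the 4 highest values belonged to genes known to lie on the Y chromosome, RPS4Y1, USP9Y, KDM5D and ZFY, and that of DDX3Y was 0.843 over all animals. The highest value of all, 0.958, was that of LOC116272386, which divided the animals as they did. RPS4Y1, a ribosomal protein gene, was at 91.5 to 249 CPM at 0 years and 93.3 to 224 CPM at 2 years in 56 animals, and at no more than 0.585 and 0.840 CPM in the other 39. The demethylase gene KDM5D, the deubiquitinase gene USP9Y, the helicase gene DDX3Y and the zinc finger gene ZFY divided the animals in the same way. The same 56 animals were high at both times for all 5 genes, and 0 animals changed side. A correlation over all animals would only restate this division, so it is given within the 56 animals, where rho was 0.639 for RPS4Y1, 0.637 for USP9Y, 0.566 for KDM5D, 0.394 for ZFY and 0.0986 for DDX3Y. These values were centred by batch within the 56 animals and were not tested, and that of DDX3Y was the lowest. LOC100997237, a gene with a provisional name that was chosen after its values were seen, had the reverse division, with 99.7 to 1159 CPM at 0 years in the 39 animals and at most 1.10 CPM in the 56.

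Of 10 tested sex-linked genes, all passed and 9 lay in the upper 5% of genes by rho, against 95.7% of all genes that passed. Of the 10, 5 were the Y-linked genes above, whose rho over all animals restates the division of the animals. The X-linked partners of the Y genes also ranked high, by values over all animals and not within each side of that division. ZFX had a rho of 0.806, EIF1AX, a translation initiation factor gene, 0.767, KDM6A, a histone demethylase gene, 0.737 and DDX3X 0.721, whereas KDM5C reached only 0.363.

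Among the genes with a symbol, 12 were chosen for the highest rho, and 8 of these were not Y-linked. The 12th and 13th values were 0.871 and 0.867, so the boundary is not a break. CHCHD2 encodes a protein of the mitochondrial intermembrane space that also acts on cytochrome oxidase. It was at 3.08, 42.5 and 110.1 CPM (lowest, median and highest) at 0 years and 3.36, 39.3 and 95.03 CPM at 2 years, with a rho of 0.912 (95% interval 0.869 to 0.941). The same animals were low each time. MRPL41, a gene of the large mitochondrial ribosomal subunit, ranged from 0 counts to 24.6 CPM at 0 years and from 0 counts to 21.5 CPM at 2 years, around medians of 4.58 and 3.67 CPM, with a rho of 0.911.

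CPAMD8, a gene of the complement and alpha-2-macroglobulin family, spanned 0.852, 156 and 826 CPM at 0 years and 4.24, 153 and 930.0 CPM at 2 years. Its rho was 0.910 (0.866 to 0.940). It was the most variable of these 8 genes after MRPL41, with SDs between animals of 1.99 and 1.85 log2 units at the 2 times. KCNH2, the potassium channel gene known for its role in cardiac repolarisation, was at 2.30, 13.7 and 85.6 CPM and then at 2.64, 14.6 and 77.8 CPM, with a rho of 0.876. ARV1, a gene of sterol and lipid transport in the endoplasmic reticulum, was at 4.05, 11.8 and 36.5 CPM and then at 5.38, 14.2 and 37.3 CPM, with a rho of 0.892. Its level rose by 0.11 ± 0.03 on the log2 scale (SE, n = 95, edgeR quasi-likelihood test, adjusted p = 0.0114) and was higher at 2 years in 62 animals, so the order was kept while the level moved.

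GSTM4, a glutathione transferase gene, was a narrow case, at 16.6, 37.4 and 71.1 CPM at 0 years and 15.2, 35.5 and 68.5 CPM at 2 years. With an SD of only 0.43 log2 units at 0 years it still had a rho of 0.880, and it fell by 0.10 ± 0.02 on the log2 scale, in 67 of 95 animals (SE, edgeR adjusted p = 0.00358). DGLUCY, a gene of D-glutamate metabolism, had a rho of 0.871. For these 7 genes Pearson's r was 0.879 to 0.935. The permutation p was 1e-05 for both rho and r in each of them, the smallest that 100000 resamples can give, and without the 2 animals farthest from the 0-year median r was 0.868 to 0.933. The adjusted p of rho, over the 9038 relations computed, was 1.45e-27 or less. Reads of GSTM4 and of CHCHD2 could be shared with near-identical copies, which makes their levels uncertain.

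RMDN1, a gene of a microtubule-associated protein, split the animals without regard to the Y-linked genes. In 32 animals it lay at 29.7 to 104.0 CPM at 0 years, and in 63 at 4.95 to 21.0 CPM, and all stayed on their side at 2 years, at 27.6 to 103.7 and 5.27 to 22.7 CPM. Within the sides rho was 0.824 and 0.647. In all, 23 genes met the rule for separate groups of animals, a gap of at least 1 log2 unit with at least 6 animals on each side. Of these, 8 split the animals as RPS4Y1 did and 13 had a provisional LOC name. RPS2, RPS7, RPS12 and RPL9, ribosomal genes, set apart the 6 batch 1 animals that had both libraries of the low kind described above.

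**Figure D2:**
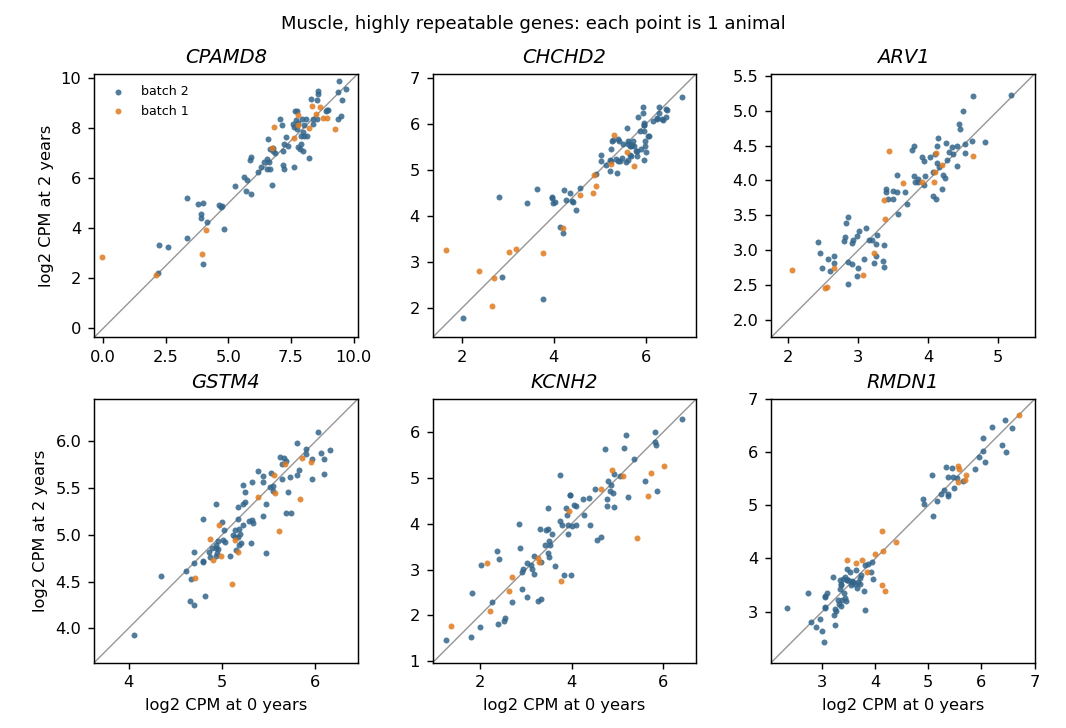
Log2 CPM at 2 years (y axis) against 0 years (x axis) for 6 highly repeatable genes, 1 point per animal (n = 95), coloured by library batch, with the line of equal values. Points follow the line in both batches for CPAMD8, CHCHD2, ARV1, GSTM4 and KCNH2, and RMDN1 shows a group of 32 animals above a group of 63.

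The order of the genes was looked at in animals that did not choose them and in other tissues. The 452 genes (5% of those tested) highest in rho in batch 2 (79 animals) had a median rho of 0.602 in the 16 other animals. For the 452 genes with the lowest rho in batch 2, the median in batch 1 was 0.212, against 0.377 for all tested genes. In batch 1 rho was above 0 for 96.9% of the highest, 81.9% of the lowest and 90.5% of all tested genes. For sets of genes ranked on all 95 animals, the medians in the other tissues fell in the same order, over a narrower range. The upper 452 had a median rho of 0.504 in liver and 0.488 in adipose tissue, the lower 452 had 0.316 and 0.316, and all genes 0.383 and 0.375 (365, 367 and 7789 genes in liver, 405, 436 and 8594 in adipose tissue). These tissues share animals and processing batches with muscle, so this is a description. Across the 9038 genes, which are not independent, the Spearman correlation of muscle rho with liver rho was 0.258, with adipose rho 0.261, and of batch 1 with batch 2 rho 0.209.

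The upper and lower 452 genes also differed in other ways. The upper genes varied more between animals, with a median SD of 0.65 log2 units against 0.36 in the lower genes and 0.42 overall. Median levels were 21.0 CPM and 10.3 CPM, and read counting accounted for a median of 1.90% of the variance in the upper and 9.13% in the lower genes. Genes with provisional LOC names made up 20.6% of the upper and 1.77% of the lower genes, against 6.32% of all. Repeatability, level and spread moved together here, and their separate parts were not tested.

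Among the 12 symbol genes with the lowest rho, 7 were genes of low level, most of them with a small spread between animals. PGAP2, a gene of GPI-anchor processing, had the lowest value of all, with a rho of -0.130 (-0.329 to 0.0791; permutation p = 0.207). It was at 3.90, 6.46 and 9.73 CPM at 0 years and 3.90, 6.18 and 8.92 CPM at 2 years, an SD of 0.26 log2 units, and read counting made up 28.3% of its variance. The zinc finger genes ZCCHC3 and ZBTB5, the nuclear pore genes NUP54 and NUP93, TRMO, a tRNA methyltransferase gene, and SPRY4, an inhibitor of receptor kinase signalling, had rho of -0.114 to -0.00290. None of the 7 passed the test, and the limits of the intervals went up to 0.205. Read counting made up 10.2 to 38.4% of the variance of these 7 genes. For TRMO, scaling by plain library totals gave a rho of 0.215 (adjusted p = 0.0397).

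Other genes varied widely between animals at each time and yet kept no order, in contrast with CPAMD8 or KCNH2. FOS, the immediate early transcription factor gene, was at 0.817, 18.9 and 384 CPM at 0 years and 0.79, 13.4 and 695 CPM at 2 years. Its SD between animals was 2.13 and 2.37 log2 units, larger than that of CPAMD8, and read counting made up 0.343% of its variance, but its rho was 0.0555 (-0.154 to 0.260; permutation p = 0.594). Animals with high FOS at 0 years were found all along the range at 2 years. EGR1, another immediate early factor gene, spanned 2.09 to 201 CPM and then 3.21 to 564 CPM, with a rho of 0.0738 (permutation p = 0.477).

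The immediate early genes as a group stood low. Of 20 tested, 12 passed, where 95.7% of all genes passed, and the median rho was 0.241 against 0.471. FOSB (0.0395), FOS, EGR1, JUNB (0.0806) and NR4A1 (0.0907) had the lowest values, and 10 of the 20 lay in the lower 5% of genes. JUND, the member of the Jun family known for its steady expression, had the highest at 0.458, followed by IER5 at 0.433. Without the 27 animals 7 of the 20 passed, and the median was 0.173. In adipose tissue the median of these 20 genes was 0.122, lower than the 0.195 of 17 in liver, with all genes at 0.375 and 0.383.

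Clock genes were spread out. Of 11 core clock genes 8 passed (median rho 0.353) and of 8 output genes 7 (median 0.301), where 95.7% of all genes passed. ARNTL, which encodes the activator BMAL1, was at 1.60, 5.53 and 25.2 CPM at 0 years and 0.560, 6.31 and 74.0 CPM at 2 years, with a rho of 0.0719 (permutation p = 0.490). NPAS2, its binding partner, had 0.110 and the output factor DBP 0.116. The activator gene CLOCK, in contrast, had 0.461. Repressors of the loop were spread as well, with PER2 at 0.243, PER1 at 0.353, PER3 at 0.359, CRY1 at 0.414, CRY2 at 0.536 and NR1D2 at 0.564. NR1D1, which was at 3.33, 16.0 and 101 CPM at 0 years, had a rho of 0.205 and did not pass, but did in batch 2 alone (0.310, adjusted p = 0.00628) and without the 27 animals (0.317, adjusted p = 0.0120). For PER2, TEF and CIART the rho in the 16 animals of batch 1 was -0.335, -0.20 and -0.156, so their positive values rest on batch 2. Without the 27 animals 9 core genes and 4 output genes passed. The sources used here do not give the time of day of the biopsies.

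**Figure D3:**
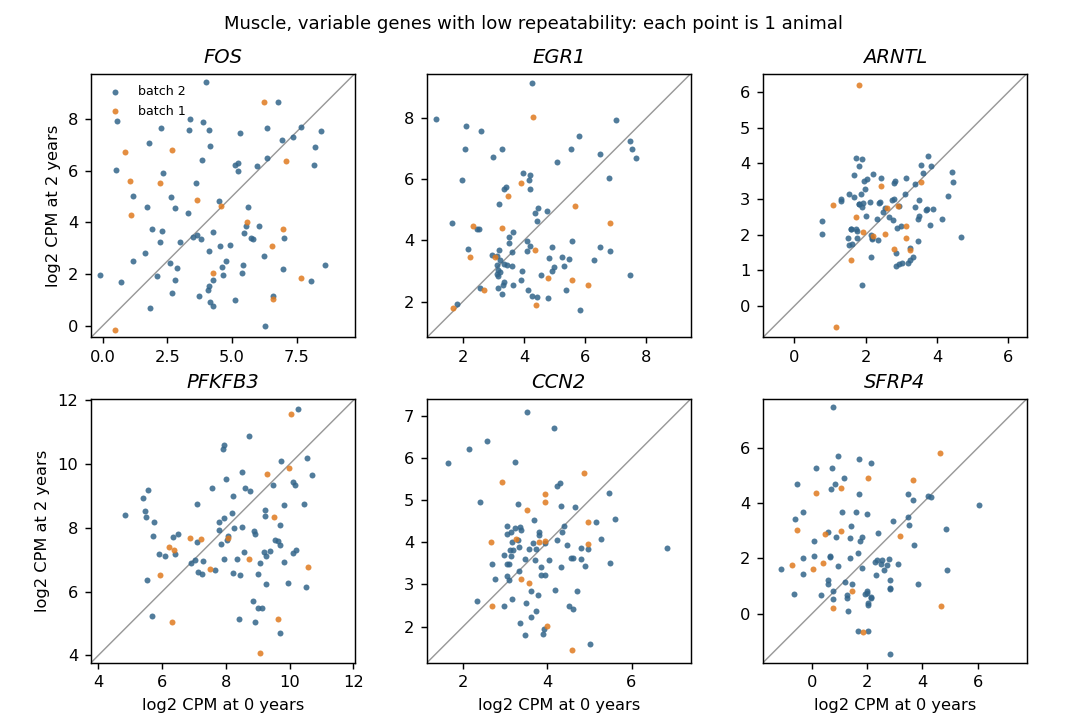
Log2 CPM at 2 years (y axis) against 0 years (x axis) for 6 variable genes with low repeatability, 1 point per animal (n = 95), coloured by library batch, with the line of equal values. FOS, EGR1, ARNTL, PFKFB3, CCN2 and SFRP4 spread over several log2 units at both times with rho between -0.00988 and 0.103.

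Over all 95 animals, genes of connective tissue had the lowest median of the lists with at least 5 tested genes, while the immediate early list was lower without the 27 animals and with the first principal component, or the first 5, removed. Of 23 tested fibroblast and matrix genes, 13 passed and the median rho was 0.235, close to the value without the 27 animals (11 passed, 0.235). Of all tested genes 95.7% passed, and 85.4% without the 27 animals. FMOD, a collagen-binding proteoglycan gene, was at 0 counts, 0.999 and 38.6 CPM at 0 years and 0 counts, 1.11 and 118 CPM at 2 years, with a rho of -0.0211. COL1A1, the main fibrillar collagen gene, was at 3.26, 20.5 and 152 CPM and then at 5.71, 28.5 and 610.4 CPM, with a rho of 0.164 (permutation p = 0.112), while its level rose by 0.52 ± 0.16 on the log2 scale (SE, edgeR adjusted p = 0.0155; higher in 58 of 95 animals). THBS1 (0.0517), MFAP5 (0.0622) and COL14A1 (0.0880) were also low. COL5A1 (0.432), COL15A1 (0.402) and COL5A2 (0.394) ranked highest. The same list had a median of 0.363 in liver (18 genes) and 0.310 in adipose tissue, nearer to the medians of all genes there.

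Several of the 10 variable genes with the lowest rho belong to the same tissue by their known roles. SFRP4, a secreted Wnt antagonist gene, spanned 0.346 to 66.3 and 0.250 to 178 CPM (rho -0.00988), CCN2, a matricellular growth factor gene, 3.01 to 115 and 2.61 to 137 CPM (rho -0.00207), and PRG4, the lubricin gene of tendon and joint, 0.106 to 39.3 and 0.148 to 83.3 CPM (rho 0.0276). OGN, a proteoglycan gene, had a rho of 0.0426. Others were the factor gene KLF5 (-0.0597), the hexosamine enzyme gene GFPT2 (-0.0523), the kinase gene PIM1 (0.0493), FOSB and FMOD. The summed level of the 30 matrix genes of the list ran from 502.5 to 1984 CPM at 0 years and from 460.1 to 6270 CPM at 2 years, and how much connective tissue each biopsy held was not measured otherwise. HBB, the beta-globin gene of red cells, ran from 3.19 to 2987 CPM and from 3.62 to 4790 CPM, with a rho of 0.163 that did not pass (permutation p = 0.116).

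Genes of the muscle fibre lay near the middle. All 17 fast and 14 slow fibre genes tested passed, where 95.7% of all genes did, with median rho of 0.429 and 0.412. MYH4, the myosin heavy chain gene of the fastest fibres, had the highest value of the fast list at 0.626 and differed most between animals, at 1.67, 20.5 and 245 CPM at 0 years and 0.80, 15.0 and 1621 CPM at 2 years. MYH2 and MYH1, of the other fast fibres, reached 0.597 and 0.395. MYBPC1, the slow myosin-binding protein gene, led the slow list at 0.663, and MYL2, the slow regulatory light chain gene, had 0.418. Reads of the near-identical myosin genes may have been shared in the counting, which makes these levels uncertain. Without the 27 animals, 12 of 17 fast and 12 of 14 slow genes passed, with medians of 0.318 and 0.368, against 85.4% of all genes.

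Some genes that passed over all 95 animals did not pass without the 27, among them 9 named genes. ACTA1, the skeletal actin gene, was at 16860, 57790 and 119000 CPM at 0 years and 10850, 56840 and 85510 CPM at 2 years, with a rho of 0.298 (adjusted p = 0.00403) that was 0.0308 (adjusted p = 0.810) without the 27 animals. CKM, the muscle creatine kinase gene, had 0.315 and then 0.0873 (adjusted p = 0.493). MSTN, which encodes the growth inhibitor myostatin, went from 0.283 to 0.0931 (adjusted p = 0.464). MYH4 did not depend on the 27 animals, with 0.626 and 0.712. In batch 2 alone ACTA1 did not pass either (0.19, adjusted p = 0.0967).

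Among metabolic genes, the oxidative phosphorylation list had a median above that of all genes. All 27 oxidative phosphorylation genes passed, and the median rho was 0.546, or 0.526 without the 27 animals, where all 27 passed again. The shares of all tested genes that passed were 95.7% and 85.4%. NDUFB3, a gene of complex I, had the highest value at 0.746, and NDUFB5, of the same complex, the lowest at 0.349. Of 28 genes of fatty acid uptake and oxidation, 27 passed with a median of 0.444. HADHB, of the mitochondrial trifunctional protein, reached 0.618. CPT1B, the muscle carnitine transferase gene, was at 15.5, 66.2 and 201 CPM and then 19.5, 84.7 and 234 CPM, with a rho of 0.494, and rose by 0.42 ± 0.08 on the log2 scale (SE, edgeR adjusted p = 0.000105; higher in 70 of 95 animals). CD36, the fatty acid transporter gene, had a rho of 0.173 that did not pass over all animals but did in batch 2 (0.310, adjusted p = 0.00629); in batch 1 it was -0.474.

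Of 27 glycolysis and glycogen genes 25 passed, against 95.7% of all genes, with a median of 0.432. PFKFB3, an enzyme gene that sets glycolytic flux and responds to hormones, was at 28.6, 352 and 1653 CPM at 0 years and 16.7, 197 and 3409 CPM at 2 years. Its rho was 0.103 (permutation p = 0.324), whereas PHKA1, the muscle subunit gene of phosphorylase kinase, had 0.607. PDK4, the fasting-responsive pyruvate dehydrogenase kinase gene, spanned 3.78 to 2989 CPM and 9.85 to 9854 CPM with a rho of 0.289. With the RPS4Y1 level as a covariate this value was 0.00826 (adjusted p = 0.938).

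Detoxification genes had the highest median of these lists after the sex-linked genes. Of 27 tested genes of glutathione and drug metabolism 26 passed (25 without the 27 animals), against 95.7% (85.4%) of all genes. The median rho of the list was 0.577 (0.597 without the 27 animals), and 7 of its genes lay in the upper 5%. Beside GSTM4 these included GSTO1, another glutathione transferase gene (0.785), ALDH1A1, a retinaldehyde dehydrogenase gene (0.783), the epoxide hydrolase gene EPHX2 (0.735), GSTM3 (0.703) and the carbonyl reductase gene CBR4 (0.688). HMOX1, the inducible haem oxygenase gene, was the member that did not pass, at 1.96, 11.3 and 76.6 CPM and then 1.92, 9.06 and 411 CPM, with a rho of 0.131.

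Among 20 nuclear receptor and coactivator genes 18 passed (median 0.477), where 95.7% of all genes passed. RXRA, a shared partner of many of these receptors (0.657), the sterol receptor gene NR1H2 (0.631) and the glucocorticoid receptor gene NR3C1 (0.619) ranked high, and PPARGC1A, the coactivator gene induced by exercise, had 0.380. Of 13 interferon-stimulated genes all passed, with a median of 0.474, led by STAT2 at 0.735. All 44 ribosomal protein genes passed with a median of 0.444. For 19 of them the 2 kinds of batch 1 library did not overlap, and in batch 2 alone the median was 0.583. RPS25 had the highest value at 0.733, or 0.835 in batch 2, and RPL27 the lowest at 0.235, or 0.412 in batch 2.

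Of all tested genes 95.7% passed. The remaining lists had medians between 0.387 and 0.496. Their counts of passing genes were 13 of 13 splicing kinase and cyclin L genes, 15 of 16 endothelial, 6 of 8 neuromuscular junction, 11 of 13 endoplasmic reticulum stress, 18 of 18 cholesterol, 16 of 16 heat shock, 18 of 19 myogenic, 9 of 9 adipocyte, 6 of 6 antigen presentation, 11 of 11 smooth muscle, 29 of 30 proteasome and 16 of 18 glucocorticoid-responsive genes. The Schwann cell list was lower, with 3 of 5 and a median of 0.331. These values are over all 95 animals. With the first principal component removed the splicing list had a median of 0.278 and the myogenic list 0.293, against 0.388 for all genes. The endothelial list kept a higher median, 0.443. Without the 27 animals 10 of 13 splicing, 15 of 19 myogenic and 15 of 16 endothelial genes passed, against 85.4% of all genes. The 9 adipocyte genes tested did not include ADIPOQ, LEP, PLIN1 or CIDEC of that list. The smooth muscle list holds DES, which also served as a marker of muscle above. Of the macrophage and blood markers only LYVE1 (rho 0.259) and HBB reached 5 CPM, and none of 13 T and NK cell markers did.

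**Figure D4:**
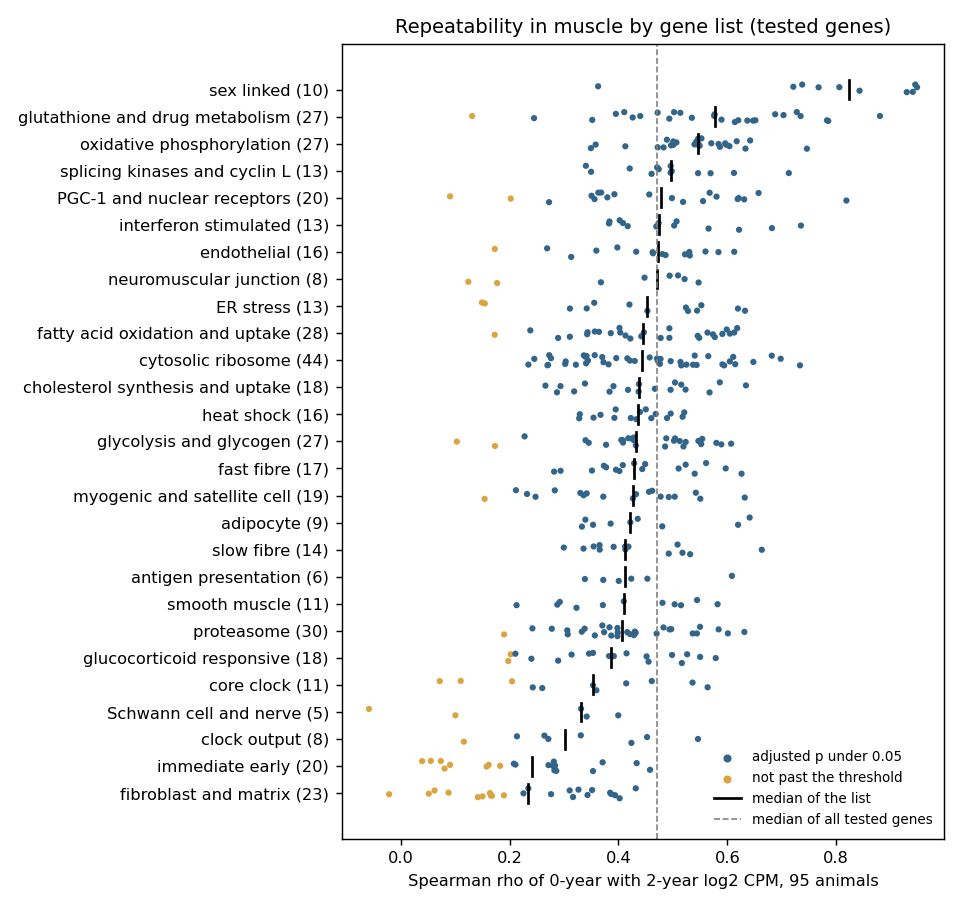
Spearman rho of 0-year with 2-year log2 CPM (x axis, 95 animals) of each tested gene in gene lists with at least 5 tested genes (y axis, number of tested genes in brackets), coloured by whether the adjusted p was under 0.05. The fibroblast and matrix list (median 0.235) and the immediate early list (0.241) lie below the median of all genes of 0.471 (dashed), and the glutathione and drug metabolism list (0.577) and the sex-linked list (0.824) above it. The sex-linked list holds the 5 Y-linked genes, whose rho over all animals restates the division of the animals.

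Repeatability was next compared between tissues over the same animals. It was higher in muscle than in liver for 475 of 7789 genes (6.1%) and lower for 63 (0.809%), in the 80 animals with both times in both tissues (difference of Fisher z, Benjamini-Hochberg). Against adipose tissue, it was higher in muscle for 438 of 8594 genes (5.1%) and lower for 43 (0.5%), in 91 animals. Some of these counts moved by over 1.5 times. The 475 were 287 with plain library totals, the 63 were 198 at a mean CPM of at least 1, 95 by Pearson's r and 35 in batch 2, the 438 were 196 in batch 2, and the 43 were 116 and 97 at a mean CPM of at least 1 and by Pearson's r. The median rho over these genes was 0.498 in muscle and 0.381 in liver, and 0.482 in muscle and 0.374 in adipose tissue. The comparison was not run without the 27 animals or with the first principal component removed. In those settings the median over the 9038 muscle genes was 0.421 and 0.388. How the tissues would compare there was not tested. The test does not model the covariance of both tissues within an animal.

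ACAA1, a peroxisomal thiolase gene, had a rho of 0.794 in muscle and 0.0738 in liver (adjusted p = 4.79e-06). PGM5, a phosphoglucomutase-like gene of muscle adhesion sites, had 0.696 and -0.0317 (adjusted p = 0.000101). ALDH1A1 was at 0.801 and 0.171, and the dehydrogenase gene SDR42E1 at 0.852 and 0.351. In the other direction, the collagen-binding integrin gene ITGA11 had 0.249 in muscle and 0.856 in liver (adjusted p = 4.79e-06), the syntaxin gene STX3 0.489 and 0.897, the RNase P subunit gene RPP40 0.465 and 0.878, and ARL14EP 0.109 and 0.734. These are differences in the carry-over of a gene and not in its level. Against adipose tissue ALDH1A1, STX3, PGM5 and ACAA1 differed in the same direction (adjusted p = 0.000218, 0.00104, 0.00242 and 0.0446). ITGA11, RPP40 and ARL14EP did not pass there.

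Against adipose tissue the largest difference on the Fisher z scale was that of CPAMD8, with a rho of 0.906 in muscle and 0.390 in adipose tissue (adjusted p = 1.05e-08). ARV1 had 0.895 and 0.422, MAGED1, a gene of the melanoma antigen family, 0.769 and 0.168, and FBXO21, a ubiquitin ligase subunit gene, 0.728 and 0.0640. ARV1 was also higher than in liver (0.876 and 0.481, adjusted p = 0.000452). LEPR, the leptin receptor gene, kept no order in muscle but did in adipose tissue, with 0.0472 and 0.672 (adjusted p = 0.000330), and its difference from liver passed as well (0.00736 and 0.547, adjusted p = 0.0143). TF, the transferrin gene, had 0.349 and 0.830, CEP57L1, a centrosomal gene, 0.458 and 0.919, and NDUFAF7, a complex I assembly gene, 0.456 and 0.867. TF was among the 12 hepatocyte markers summed above, and what liver transcript added to its muscle values was not tested. MAGED1, FBXO21 and CEP57L1 also differed from liver in the same direction (adjusted p = 0.00769, 0.0372 and 0.0253), while NDUFAF7 and TF did not pass there. For CHCHD2 the difference from liver did not pass (0.897 against 0.842, adjusted p = 0.410), which does not show that the tissues are alike.

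**Figure D5:**
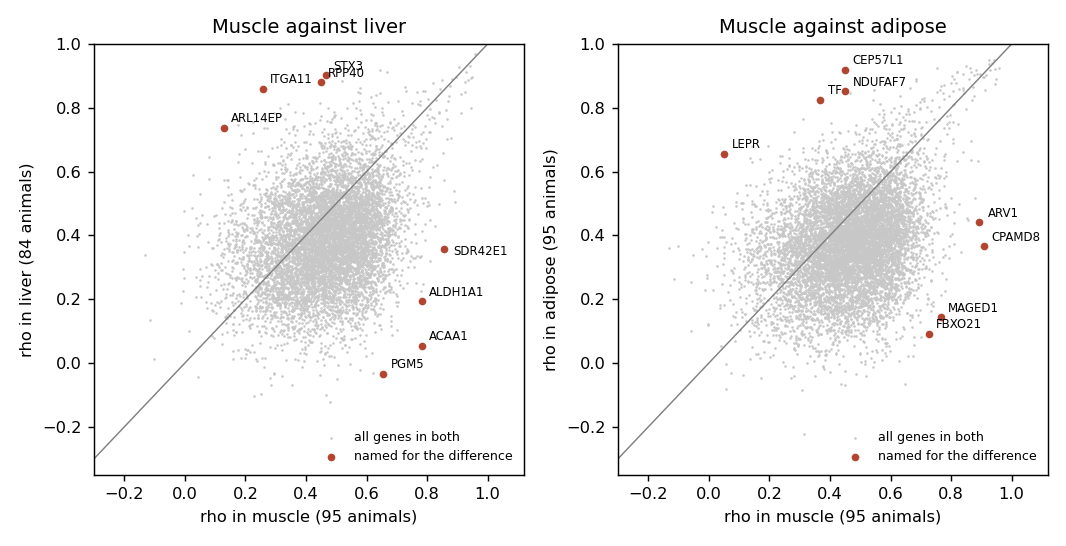
Spearman rho of 0-year with 2-year log2 CPM in muscle (x axis, 95 animals) against liver (left, y axis, 84 animals) and adipose tissue (right, y axis, 95 animals), 1 point per gene tested in both, with the line of equal values. Marked are the genes with the largest called differences on the Fisher z scale, which are not all the largest in rho: ACAA1, ALDH1A1, SDR42E1 and PGM5 lie right of the liver cloud, and LEPR, TF, NDUFAF7 and CEP57L1 lie above the adipose cloud.

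The mean change between the biopsies was a separate matter from the carry-over. Of 13621 genes tested with the animal as block, 911 (6.69%) were higher and 1077 (7.91%) lower at 2 years (edgeR quasi-likelihood test, adjusted p under 0.05), and 445 and 133 without the block. Among the 9038 genes with a rho, 6.77% were higher and 9.38% lower. Of the upper 452 genes 12 (2.65%) were higher and 47 (10.4%) lower, and of the lower 452 genes 51 (11.3%) were higher and 16 (3.54%) lower. Genes that rose were a smaller share of the upper set than of the lower one, and genes that fell a larger share. The difference between these shares was not tested, and the level, spread and counting noise given above differ between both sets as well. KLF5 rose by 0.60 ± 0.13 on the log2 scale (SE, adjusted p = 0.000612; higher in 64 of 95 animals) and kept no order, while ABAT, the GABA transaminase gene, fell by 0.64 ± 0.13 (adjusted p = 0.000312; lower in 67 of 95) with a rho of 0.377. DBP fell by 0.38 ± 0.11 (adjusted p = 0.0120; lower in 60 of 95).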

How the data were processed

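RNA was sequenced from frozen biopsies in a pair of library batches with different kits and read layouts, per the labels' protocols. Raw counts per gene were deposited by the authors for 588 libraries, and again for the 570 left after quality control, by criteria not given in the sources used here. FastQC, STAR 2.7.7a and featureCounts are named in the submitters' processing notes. The genome build, the annotation and the strand setting are also not stated there, and overlapping genes and near-identical copies are uncertain and no coordinates are printed. Each column was matched to animal, tissue and time by its name. Of the table of 588 libraries, 586 columns were not used, and the other 2 served as an alternative. Of 34178 genes, 33824 matched a RefSeq symbol (assembly Panubis1.0, names only).

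Which animals belong to which batch is not in the labels. The 16 animals whose samples come first in the series were taken as batch 1. In muscle 33 tested genes did not overlap between the libraries of both batches, but none of the first 10 axes of the animal means separated the animals completely.

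Counts were scaled by TMM (edgeR 4.0.16, R 4.3.3) to log2 CPM with a prior count of 2 and centred within time and batch. Genes with a mean of at least 5 CPM were kept. Python 3.11.15 gave Spearman's rho over animals, with a p from the t approximation adjusted by Benjamini-Hochberg over all genes at 0.05. Named genes also had Pearson's r and 100000 permutations of the pairing within batch. Tissues were compared by the difference of Fisher z, with a variance of 1.06/(n - 3) for each. The time effect was tested by edgeR (quasi-likelihood) with a block for the animal, since the labels pair libraries by animal. limma 3.58.1 and DESeq2 1.42.0 served as alternatives. Libraries stood apart where their median correlation with the others was over 3 median absolute deviations low. P-values of rho are for the association of both times over animals. Those of the time effect set the mean change against its variation from animal to animal. There was 1 library per animal and time. Scripts were tested on simulated data.

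Named genes were the 12 highest and 12 lowest by rho with a symbol, the 10 highest and 10 lowest among genes with an SD between animals over 0.57 log2 units, 59 anchor genes (43 tested), the extremes of each of 30 lists, and the 4 largest called differences per tissue and direction, 132 in all, some of which are not reported here. The genes, lists and rules were chosen with earlier results of these data known. A planned choice of LOC genes by their description gave none. Beside these, other members of the lists are named to describe them.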

Additional observations from a re-analysis of the deposited data

Results flagged for a closer look

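The carry-over of expression from 0 to 2 years differed between tissues in a test of the difference itself, with 475 genes higher in muscle than in liver and 63 lower, and 438 higher in muscle than in adipose tissue and 43 lower. At an unadjusted p under 0.05 these counts were 1542 and 221 for liver, and 1602 and 230 for adipose tissue. Animals were processed as a unit over tissues, and quality and depth of the libraries differ between tissues, whose part was not tested.

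The single genes are those with a symbol and the largest called differences on the Fisher z scale, which are not all the largest in rho. The rho in muscle minus that in liver was 0.728 for PGM5, 0.501 for SDR42E1, 0.63 for ALDH1A1 and 0.72 for ACAA1. It was -0.607 for ITGA11, -0.409 for STX3, -0.412 for RPP40 and -0.625 for ARL14EP. The rho in muscle minus that in adipose tissue was 0.474 for ARV1, 0.516 for CPAMD8, 0.601 for MAGED1 and 0.664 for FBXO21. It was -0.461 for CEP57L1, -0.411 for NDUFAF7, -0.481 for TF and -0.625 for LEPR.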

How the results depend on the processing

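The count of repeatable genes stayed between 7192 and 8757 under every scaling, covariate and choice of animals tried on the 9038 genes, except in batch 1 alone (1054, n = 16 animals). It moved with the number of genes tested, to 18750 of 28773 with no filter and 4714 of 4796 at a mean CPM of at least 20. With no filter 3630 genes had a negative rho past the threshold and the median rho was 0.340. Of these 3630, 3215 had over 90% of libraries at 0 counts and 0 reached a mean of 1 CPM, and centring by batch gives such tied values an order, so no direction is read from them. The median rho was 0.345 with the list scores as covariates and 0.340 with the first 5 principal components removed, and lay between 0.377 and 0.502 otherwise.

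Among named genes the sign turned for TRMO with plain library totals (0.215), for MYC (-0.0371) and PDK4 (-0.0410) with 5 components removed, and in batch 1 alone for PER2 (-0.335), CIART (-0.156), TEF (-0.20), MSTN (-0.0206), HSPB1 (-0.0324), PECAM1 (-0.118), RPL3 (-0.0765), HSPH1 (-0.118), ABCA1 (-0.162) and NDUFAF7 (-0.141). The cause was not tested. Calls of named genes were lost for 57 in batch 1 alone, 15 with 5 components removed, 14 with list scores, 9 without the 27 animals and at most 5 in each other setting.

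Genes more repeatable in muscle than in liver numbered 287 with plain totals, and those less repeatable 198 at a mean CPM of at least 1, 95 by Pearson's r and 35 in batch 2. Against adipose tissue 196 were more repeatable in batch 2, and 116 and 97 less repeatable at a mean CPM of at least 1 and by Pearson's r. For the time effect, leaving out the replicate block gave 445 higher and 133 lower genes and batch 2 alone 496 and 575. The pairing is by animal. DESeq2 with the block gave 1150 and 1151.

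Principal components, libraries apart, the RPS4Y1 and hepatocyte covariates and the RPS2 split were chosen after seeing the data. The planned XIST covariate was not run, since no row carries that name. A change of sign between values that pass in neither setting is not counted here.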
